A study of Mus musculus with 10 samples.

Results

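Glycolysis splits glucose into pyruvate, and pyruvate then has several ends. Lactate dehydrogenase reduces it to lactate, the pyruvate dehydrogenase complex (PDHC) oxidises it to acetyl-CoA in mitochondria, and in a fasting liver pyruvate carboxylase, PEP carboxykinase, fructose-1,6-bisphosphatase and glucose-6-phosphatase turn it back into glucose. The liver is known for isozymes and carriers of its own at several of these steps: the low-affinity glucose transporter GLUT2 (Slc2a2), liver pyruvate kinase (Pklr) and the bifunctional phosphofructokinase Pfkfb1 serve a cell that both takes up and exports glucose, whereas GLUT1 (Slc2a1), hexokinase 2, muscle-type pyruvate kinase (Pkm) and the lactate carrier MCT4 (Slc16a3) are typical of cells with a high glycolytic rate.

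The RNA of 39 named genes of these steps was followed in mouse liver. They were chosen by name, as a list of genes for glycolysis, gluconeogenesis, lactate and pyruvate, and all 39 were found among the 38922 genes of the tables by their mouse Ensembl identifiers. Livers came from wild-type male C57BL/6N mice aged 6 weeks, kept on chow without restriction. In 1 group, 5 mice received an intraperitoneal injection of CD95-Ab, an antibody that activates the death receptor CD95 (Fas), at 0.5 µg per g body weight. In the other group, 5 mice received the same volume of saline, and all livers were taken after 6 h. Each mouse gave 1 whole-liver library, so every value is a mixture of hepatocytes and all other cells in the tissue, and no enzyme amount, enzyme activity or place in the cell was measured in these files.

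The values below are CPM, read counts of a gene scaled to a total of 1000000 counts per mouse after TMM adjustment. The test was that of edgeR (quasi-likelihood), run over all 13719 genes with enough counts. Genes with a Benjamini-Hochberg adjusted p (FDR) of 0.05 or less were called, and log2 fold changes at or past 2 and -2 mark the larger changes. Total counts per mouse were 25965699 to 62097636 in saline-injected mice and 27480796 to 44962196 after CD95-Ab, so that 3 counts, about the lowest amount that can be read, are 0.0483 to 0.116 CPM before the adjustment.

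Of the 39 genes, 26 were called: 11 were higher and 15 lower after CD95-Ab than in saline-injected controls. Among all tested genes, 47.3% were called, 25.4% as higher and 22.0% as lower. All 39 genes passed the filter on low counts, so no member was lost before the test. The larger changes numbered 8 upward and 2 downward among the members, while 6.59% of all tested genes were called at or above 2 and 1.11% at or below -2. In 10 members every CD95-Ab mouse was above every saline-injected mouse, and in 9 every CD95-Ab mouse was below, compared with 18.6% and 14.7% of all tested genes. The median log2 fold change was -0.21 over the members and 0.01 over all tested genes.

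The direction differed by step. Glucose transporters and hexokinases had 4 genes higher and 1 lower of 5. The phosphofructokinase step, counted together with the isomerase gene Gpi1, had 3 higher, 3 lower (Gpi1 among them) and 1 not called of 7. The 10 genes of lower glycolysis had 1 higher, 2 lower and 7 not called. The 4 genes of lactate had 2 higher and 2 not called. The 8 genes from pyruvate to acetyl-CoA had 1 higher, 6 lower and 1 not called, and the 5 genes of gluconeogenesis had 3 lower and 2 not called.

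**Figure D1:**
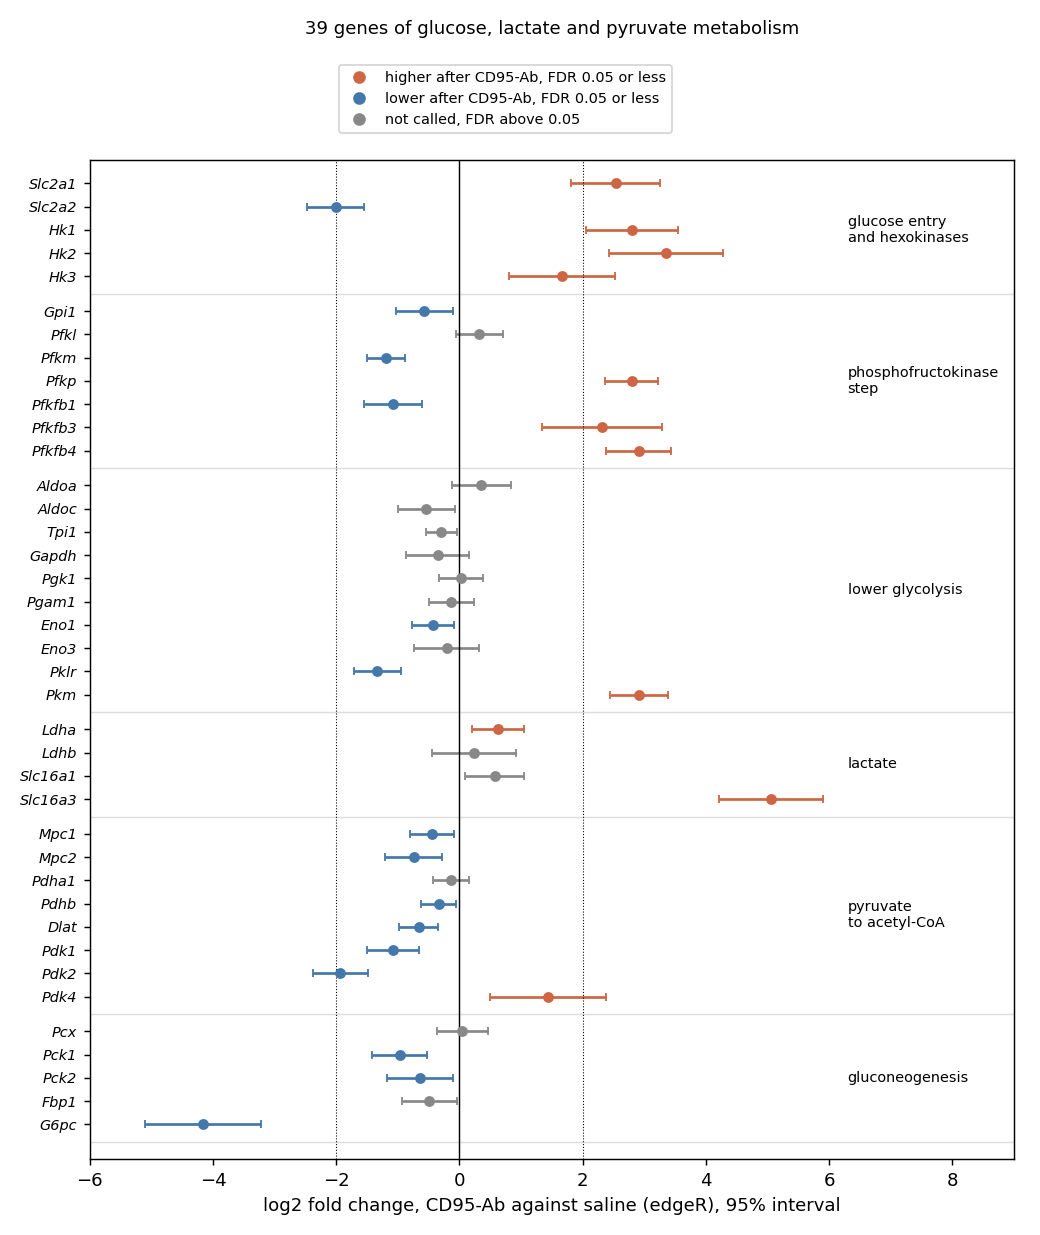
Log2 fold change of each of the 39 genes, CD95-Ab against saline, from edgeR (points) with the 95% interval (bars), in the order of the metabolic steps; dotted lines mark 2 and -2. Slc16a3 lies farthest to the right at 5.06 and G6pc farthest to the left at -4.16, while 7 of the 10 genes of lower glycolysis were not called, of which Aldoc and Tpi1 have intervals below 0.

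The stretches of DNA before the start sites of the genes that rose most are shown here because the hypoxia response element core, the letters bound by hypoxia-inducible factors, is the best known motif of glycolytic gene promoters. Promoter sequences were taken from RefSeq (GRCm38.p6), which held at least 1 for all 39 members, and the 250 bases before each start were searched on both strands for the hypoxia response element core (ACGTG or GCGTG), the E-box (CACGTG) and the cAMP response element core (TGACG). An E-box holds the hypoxia core on both strands, and in the letters TGACGTG the cAMP and hypoxia cores overlap. The sequence for Slc16a3 is chr11:120948817-120949052 on the plus strand and that for Hk2 is chr6:82774455-82774704 on the minus strand, both 5′ to 3′ along the gene, with motif letters in capitals.
Slc16a3: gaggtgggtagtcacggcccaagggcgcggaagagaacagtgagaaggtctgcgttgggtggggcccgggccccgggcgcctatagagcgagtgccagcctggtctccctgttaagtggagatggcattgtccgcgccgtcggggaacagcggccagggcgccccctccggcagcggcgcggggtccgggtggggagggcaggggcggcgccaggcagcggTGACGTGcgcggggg
Hk2: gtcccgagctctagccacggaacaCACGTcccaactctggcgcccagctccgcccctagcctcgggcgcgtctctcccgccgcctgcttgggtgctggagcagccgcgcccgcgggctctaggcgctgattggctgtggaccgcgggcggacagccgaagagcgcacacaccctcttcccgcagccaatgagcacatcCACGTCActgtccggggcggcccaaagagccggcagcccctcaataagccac

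In the Slc16a3 sequence a cAMP core and a hypoxia core overlap, beginning 29 and 27 bases before the RefSeq start. A further hypoxia core began 14 bases before it, past the printed stretch, which stops at the first base of the window in a GENCODE exon. The GENCODE gene begins further upstream, at 120948480, so the printed stretch lies within the annotated gene. In Hk2, hypoxia cores began 226 and 52 bases before the start, and the latter overlaps a cAMP core at 50. The windows of Pkm and G6pc lie mostly in annotated exons and are not printed; 1 of the 2 Pkm windows held a hypoxia core 75 bases before its start, and that of G6pc held none of the motifs.

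The hypoxia core was present before at least 1 start of 11 of the 11 genes that were higher, 9 of the 15 that were lower and 11 of the 13 that were not called. It was present in 38.6% of all 32851 RefSeq promoters and for 59.6% of the 10386 tested genes with a RefSeq promoter. The cAMP core was found for 5 of the 11 higher, 3 of the 15 lower and 0 of the 13 genes not called, compared with 17.8% of all promoters and 29.6% of tested genes. The E-box was found for 2 genes in each of the 3 sets, compared with 6.02% of all promoters and 9.78% of tested genes. Genes with several start sites have more windows in which a match can lie. These matches are a description of letters, and binding at them was not measured here.

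Glucose transporters changed in opposite directions. Slc2a1 (ENSMUSG00000028645, chr4:119108711-119137983 in GRCm38) encodes GLUT1, the high-affinity transporter of most tissues. Its CPM in saline-injected mice 1 to 5 were 7.79, 7.80, 9.49, 13.1 and 13.1, and after CD95-Ab 33.2, 72.5, 97.4, 65.9 and 28.9. The lowest CD95-Ab mouse was above the highest control, although the CD95-Ab mice varied widely among themselves. It was 5.80-fold higher after CD95-Ab, a log2 fold change of 2.54 ± 0.333 (SE, edgeR, FDR = 8.57e-05).

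Slc2a2 (ENSMUSG00000027690, chr3:28697903-28731359) encodes GLUT2, the glucose transporter of hepatocytes. It was at 180.0, 100.2, 219, 167 and 149.9 CPM in saline-injected mice and at 43.5, 32.7, 54.5, 36.7 and 35.6 CPM after CD95-Ab. The groups did not overlap, and the 5 CD95-Ab mice lay close together. It fell by 2.01 on the log2 scale (SE 0.212, FDR = 1.78e-05), to 24.9% of the mean of controls, and so lay just past the threshold for the larger changes. On the FPKM scale, which divides by transcript length, Slc2a1 made up 5.69% ± 1.55 (SD, n = 5) of the summed Slc2a1 and Slc2a2 level in saline-injected mice and 55.5% ± 11.7 after CD95-Ab, with no overlap between mice.

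Hexokinases phosphorylate glucose on entry, and all 3 hexokinase genes of the list rose. Hk2 (ENSMUSG00000000628, chr6:82725025-82774454), the insulin- and hypoxia-responsive isozyme of muscle and many tumours, was at 1.55, 2.91, 0.451, 1.001 and 1.04 CPM in saline-injected mice. After CD95-Ab it was at 9.85, 15.7, 23.3, 12.7 and 9.57 CPM. All treated mice were far above the highest control, and the controls were low and uneven. The log2 fold change was 3.35 ± 0.427 (SE), 10.2-fold (FDR = 7.01e-05).

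Hk1 (ENSMUSG00000037012, chr10:62268855-62379908), the isozyme of brain and red cells, had 1.74, 1.54, 1.32, 1.46 and 1.28 CPM in controls and 4.81, 11.6, 19.9, 7.27 and 7.95 CPM after CD95-Ab. Controls were nearly alike, while the treated mice ranged widely, with replicate 3 highest and replicate 1 lowest. Its log2 fold change was 2.81 ± 0.343 (FDR = 5.16e-05). Hk3, the isozyme of myeloid leukocytes, went from 4.64 ± 2.81 to 14.7 ± 3.75 CPM (SD, n = 5 each), a 3.17-fold rise (FDR = 0.00458), also without overlap. As shares of the summed FPKM of the 3 hexokinases, Hk2 moved from 24.6% ± 4.75 to 41.3% ± 9.01 without overlap, whereas the shares of Hk1 (17.3% and 18.3%) and Hk3 (58.2% and 40.4%) overlapped between the groups.

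**Figure D2:**
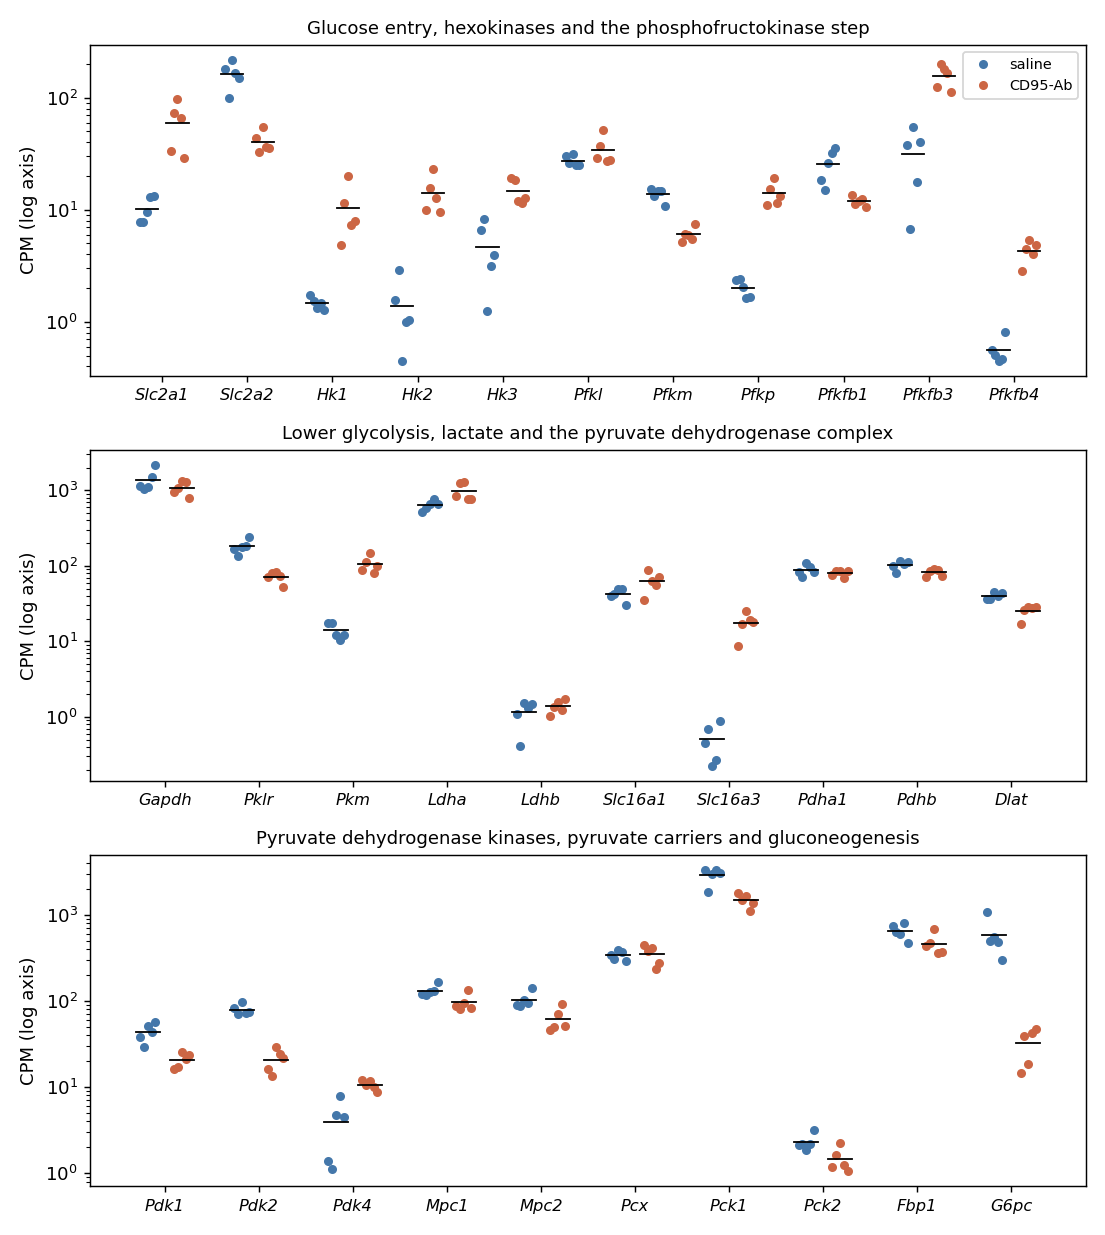
CPM of 31 of the 39 genes on a log axis, 1 point per mouse (5 saline, 5 CD95-Ab) and a black line at each group mean, in 3 panels by metabolic step. The points of Slc16a3, Hk2, Pkm, Pfkp and Pfkfb4 are far above the saline points, those of G6pc far below, and those of Gapdh, Ldhb, Pdha1 and Pcx overlap.

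At the phosphofructokinase step, the committed step of glycolysis, the isozymes went different ways. Phosphofructokinase is built from liver (Pfkl), muscle (Pfkm) and platelet (Pfkp) subunits. Pfkp (ENSMUSG00000021196, chr13:6579768-6648777) was at 2.35, 2.43, 2.03, 1.62 and 1.67 CPM in controls and at 10.98, 15.4, 19.2, 11.5 and 13.2 CPM after CD95-Ab. All treated mice were well above all controls, with little spread in either group. It rose 6.95-fold (log2 fold change 2.80 ± 0.197, FDR = 1.35e-06).

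Pfkm fell from 13.8 ± 1.89 to 6.02 ± 0.879 CPM, a log2 fold change of -1.19 without overlap (FDR = 4.56e-05). Pfkl had 27.5 ± 2.90 and 34.4 ± 10.2 CPM and was not called (log2 fold change 0.32, 95% interval -0.06 to 0.71, FDR = 0.151). On the FPKM scale Pfkl was the largest of the 3 in both groups, with a share of 58.2% ± 3.04 in controls and 58.4% ± 3.43 after CD95-Ab. The other two exchanged places: Pfkm went from 36.8% ± 3.27 to 13.2% ± 3.32 and Pfkp from 4.99% ± 1.11 to 28.4% ± 1.35, both without overlap.

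The Pfkfb genes encode the bifunctional enzymes that make and remove fructose 2,6-bisphosphate, the strongest activator of phosphofructokinase. Pfkfb3 (ENSMUSG00000026773, chr2:11471433-11554077), the isoform with the highest kinase activity, was at 38.1, 6.79, 54.8, 17.6 and 40.4 CPM in saline-injected mice and at 125, 198, 181, 168 and 112 CPM after CD95-Ab. Controls differed among themselves in proportion by more than the treated mice did, but no control reached the treated range. The log2 fold change was 2.31 ± 0.444 (FDR = 0.00122).

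Pfkfb4 (ENSMUSG00000025648, chr9:108991778-109032228) was much scarcer, at 0.565, 0.504, 0.451, 0.462 and 0.816 CPM in controls and 2.82, 4.43, 5.37, 3.996 and 4.80 CPM after CD95-Ab. Again the groups lay apart. It rose 7.50-fold (log2 fold change 2.91 ± 0.243, FDR = 3.36e-06). Pfkfb1, the isoform of hepatocytes that is switched by glucagon through phosphorylation, fell from 25.4 ± 8.66 to 12.0 ± 1.13 CPM (log2 fold change -1.08, FDR = 0.00152) without overlap. Pfkfb3 and Pfkfb4 together made 31.2% ± 13.6 of the summed FPKM of the 3 genes in controls and 83.5% ± 3.50 after CD95-Ab. Gpi1, which interconverts glucose 6-phosphate and fructose 6-phosphate, fell from 192 ± 63.9 to 129.7 ± 25.9 CPM with overlapping mice (log2 fold change -0.57, FDR = 0.0445). This call was lost without saline replicate 1 or 5 or CD95-Ab replicate 1, 2, 4 or 5, at log2 fold changes of -0.60 to -0.35.

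Most genes of lower glycolysis, whose enzymes every cell uses, were not called. Gapdh, glyceraldehyde-3-phosphate dehydrogenase, was at 1155, 1036, 1104, 1484 and 2178 CPM in controls and at 948, 1091, 1330.4, 1299 and 787 CPM after CD95-Ab. The groups overlapped, and the highest and the lowest value came from replicate 5 of saline and replicate 5 of CD95-Ab. It was not called (log2 fold change -0.35, 95% interval -0.86 to 0.16, FDR = 0.241).

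Not called either were the aldolases Aldoa (113 ± 41.3 and 145 ± 23.9 CPM) and Aldoc (11.8 ± 2.44 and 8.14 ± 2.41 CPM, FDR = 0.0535), triose phosphate isomerase Tpi1 (263 ± 14.1 and 214 ± 24.6 CPM, FDR = 0.0547), phosphoglycerate kinase Pgk1 (258 ± 40.003 and 263 ± 54.3 CPM), phosphoglycerate mutase Pgam1 (141 ± 28.3 and 128 ± 22.3 CPM) and muscle enolase Eno3 (3.04 ± 0.641 and 2.64 ± 0.938 CPM). The 95% intervals of these 6 log2 fold changes all lay between -1.01 and 0.84, and those of Aldoc and Tpi1 did not include 0. The log2 fold change of Pgk1, 0.03, turned its sign under other scalings. Aldoc was called without saline replicate 3 or CD95-Ab replicate 1 (-0.70 to -0.64), Tpi1 without CD95-Ab replicate 3 or 4 (-0.36 to -0.33) and Aldoa without saline replicate 5 (0.59). Eno1, the main enolase, fell from 392 ± 62.8 to 291 ± 48.2 CPM with overlap (log2 fold change -0.43, FDR = 0.0421), and lost the call without any mouse other than saline replicate 2 or CD95-Ab replicate 3 or 4, at -0.45 to -0.37. Genes such as Gapdh, Pgk1, Aldoa and Ldha have processed pseudogenes, and reads that match more than 1 copy were shared out before the counts were made, so their values depend on that step.

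Pyruvate kinase was the exception in lower glycolysis. Pkm (ENSMUSG00000032294, chr9:59656368-59679375) encodes the muscle-type enzyme, and its splice forms are not told apart by a value per gene. It was at 17.6, 17.7, 12.3, 10.5 and 12.2 CPM in saline-injected mice and at 87.6, 112, 149.7, 80.2 and 98.9 CPM after CD95-Ab. The groups were far apart and each was even. It rose 7.52-fold (log2 fold change 2.91 ± 0.215, FDR = 1.79e-06).

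Pklr, the pyruvate kinase of hepatocytes and red cells, fell from 182 ± 39.2 to 72.1 ± 11.9 CPM without overlap (log2 fold change -1.33, 95% interval -1.71 to -0.95, FDR = 8.28e-05). On the FPKM scale Pkm was the minor form in every control, at 5.59% to 13.0% of the sum of both genes, and the major form in every CD95-Ab mouse, at 56.5% to 68.6%.

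**Figure D3:**
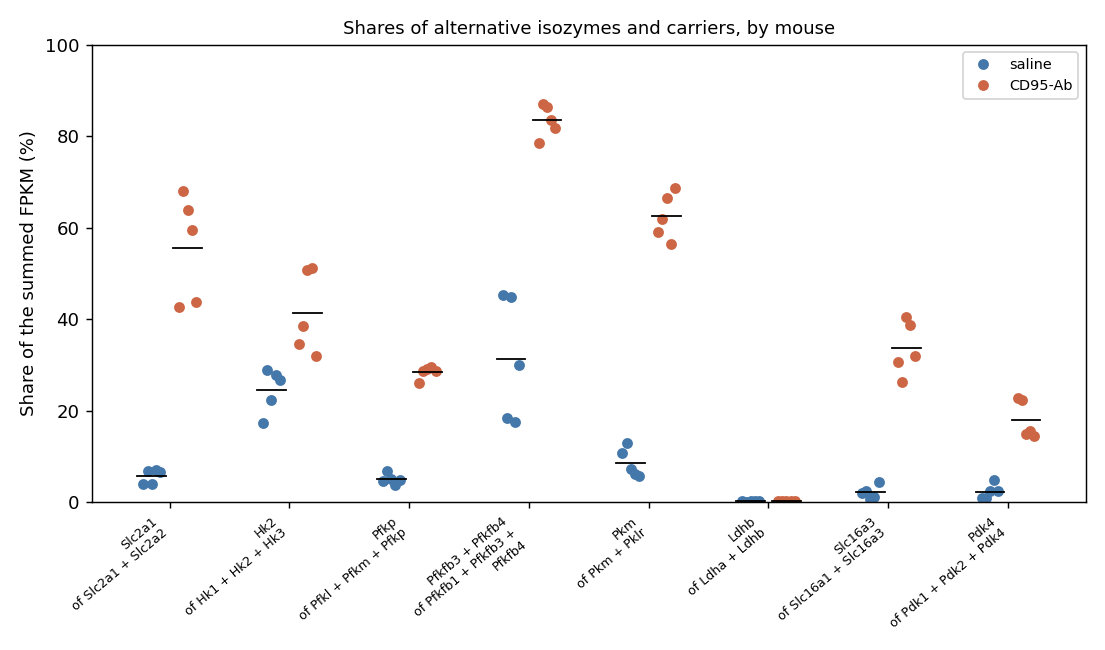
Share of the gene named first in the summed FPKM of the genes that catalyse the same step or carry the same substrate, in percent, 1 point per mouse and a black line at each group mean. The share of Pkm rises from a mean of 8.58% to 62.5% and that of Slc2a1 from 5.69% to 55.5%, while the share of Ldhb stays below 0.3% in all 10 mice.

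The study asked about lactate dehydrogenase and the pyruvate dehydrogenase complex, so their subunit genes are given mouse by mouse. Ldha (ENSMUSG00000063229, chr7:46841475-46855627), the lactate dehydrogenase subunit that predominates in liver and muscle, was at 520.0, 576, 654, 768 and 655 CPM in saline-injected mice. After CD95-Ab it was at 841, 1247, 1278, 780.4 and 758 CPM. Replicates 2 and 3 of CD95-Ab stood above the others, and replicate 5 of CD95-Ab was below replicate 4 of saline. It was 1.55-fold higher after CD95-Ab (log2 fold change 0.63, 95% interval 0.20 to 1.05, FDR = 0.0192). This call was lost without saline replicate 1 and without CD95-Ab replicate 2, at log2 fold changes of 0.53 to 0.56.

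Ldhb, the heart-type subunit, was at 1.11, 0.415, 1.52, 1.31 and 1.48 CPM in controls and at 1.027, 1.34, 1.55, 1.25 and 1.70 CPM after CD95-Ab. The groups overlapped, and saline replicate 2 was the lowest of all mice. It was not called (log2 fold change 0.24, 95% interval -0.45 to 0.92, FDR = 0.561), and with this interval a rise as large as that of Ldha cannot be told from none. Ldhb made 0.225% ± 0.0738 of the summed FPKM of both genes in controls and 0.185% ± 0.0611 after CD95-Ab.

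Of the proton-coupled carriers that move lactate across the membrane, MCT4 showed the largest rise among the 39 genes. Slc16a3 (ENSMUSG00000025161, chr11:120948480-120960868) encodes MCT4, the carrier of cells that export lactate. In controls it was at 0.447, 0.682, 0.225, 0.269 and 0.890 CPM, down to 7 counts in a mouse, and after CD95-Ab at 8.73, 16.8, 25.1, 19.1 and 17.8 CPM. No control came near the treated mice, of which replicate 1 was lowest. The log2 fold change was 5.06 ± 0.387 (FDR = 2.03e-06), 33.3-fold.

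Slc16a1 encodes MCT1, the carrier found in most tissues. It was at 39.6, 42.7, 49.6, 49.7 and 30.8 CPM in controls and at 35.2, 88.0, 63.7, 56.3 and 71.7 CPM after CD95-Ab. Of the treated mice, 4 were above all controls and replicate 1 was below 4 of the controls. It was not called, by a narrow margin (log2 fold change 0.57, 95% interval 0.09 to 1.05, FDR = 0.0504), and was called without CD95-Ab replicate 1 or 4 (0.59 to 0.72). Slc16a3 made 2.11% ± 1.44 of the summed FPKM of both carriers in controls and 33.6% ± 5.91 after CD95-Ab, so Slc16a1 remained the more abundant transcript in every mouse.

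Pyruvate enters mitochondria through a carrier of the subunits Mpc1 and Mpc2. Mpc2 fell from 103 ± 22.2 to 61.8 ± 19.4 CPM (log2 fold change -0.74, FDR = 0.0125) and Mpc1 from 132 ± 20.7 to 96.3 ± 22.0 CPM (log2 fold change -0.45, FDR = 0.0408). In both genes CD95-Ab replicate 4 was within the range of controls and the other treated mice were below all controls. The call of Mpc1 was lost without any mouse other than saline replicate 1 or 2 or CD95-Ab replicate 4, at -0.48 to -0.35.

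Of the 3 PDHC subunit genes of the list, 1 was not called and 2 were lower at the RNA level. Pdha1 encodes E1α, the catalytic subunit followed in the study by antibody. It was at 84.1, 70.2, 108, 96.5 and 83.9 CPM in saline-injected mice and at 76.4, 85.1, 84.96, 69.96 and 85.4 CPM after CD95-Ab. The treated range lay almost wholly within that of the controls. It was not called (log2 fold change -0.14, 95% interval -0.42 to 0.15, FDR = 0.407).

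Pdhb encodes E1β, the partner of E1α. Its values were 100.5, 80.7, 116, 107 and 112 CPM in controls and 70.3, 85.9, 90.6, 88.0 and 73.9 CPM after CD95-Ab. Saline replicate 2 was the only control within the treated range. It passed the threshold narrowly (log2 fold change -0.34, FDR = 0.0499) and lost the call without any mouse other than saline replicate 2 or CD95-Ab replicate 3 or 4, at -0.35 to -0.29.

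Dlat encodes E2, the acetyltransferase core of the complex. It was at 36.4, 36.6, 44.6, 39.8 and 44.0 CPM in controls and at 17.2, 25.8, 28.7, 27.7 and 28.3 CPM after CD95-Ab. All treated mice were below all controls, with replicate 1 apart from the other 4. It fell by 0.66 on the log2 scale (SE 0.145, FDR = 0.00296).

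The pyruvate dehydrogenase kinases switch PDHC off by phosphorylating E1α, and their isoforms moved in both directions. Pdk2, the main kinase of liver, was at 82.4, 70.6, 96.8, 72.2 and 74.6 CPM in controls and at 16.3, 13.3, 28.9, 24.1 and 21.5 CPM after CD95-Ab. The highest treated mouse was far below the lowest control. It fell by 1.93 on the log2 scale (SE 0.201, FDR = 1.60e-05), to 26.2% of the control mean.

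Pdk1, a known target of hypoxia-inducible factor, was at 37.8, 28.8, 50.8, 43.1 and 57.3 CPM in controls and at 16.4, 17.1, 25.3, 21.2 and 23.3 CPM after CD95-Ab. The groups did not overlap. It fell by 1.08 on the log2 scale (SE 0.192, FDR = 7.39e-04), in the direction opposite to Slc2a1, Hk2 and Slc16a3.

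Pdk4, the kinase induced by fasting and glucocorticoids, had 1.39, 1.13, 4.79, 7.89 and 4.45 CPM in controls and 12.1, 10.4, 11.7, 10.01 and 8.81 CPM after CD95-Ab. Treated mice were alike, whereas controls spread from near 1 to near 8 without reaching them. Its log2 fold change was 1.44 ± 0.432 (FDR = 0.0161). Summed over FPKM, Pdk2 stayed the largest of the 3 kinases, at 74.5% ± 5.64 in controls and 53.0% ± 5.98 after CD95-Ab. Pdk4 went from 2.27% ± 1.67 to 17.9% ± 4.15 without overlap and Pdk1 from 23.2% ± 4.83 to 29.1% ± 2.68 with overlap.

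No gene of gluconeogenesis was called higher. G6pc (ENSMUSG00000078650, chr11:101367561-101377903) encodes glucose-6-phosphatase, the last step of glucose release from liver. It was at 1074, 496, 552, 482 and 294 CPM in saline-injected mice and at 14.7, 38.9, 18.6, 42.9 and 46.6 CPM after CD95-Ab. The lowest control was far above the highest treated mouse. It fell by 4.16 on the log2 scale (SE 0.430, FDR = 1.53e-05), to 5.58% of the control mean, the largest fall of the 39 genes.

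Pck1, cytosolic PEP carboxykinase, was at 3300.2, 1822, 2969, 3279 and 3086 CPM in controls and at 1770.3, 1467, 1627, 1117 and 1380.5 CPM after CD95-Ab. Saline replicate 2 stood apart from the other controls and close to the highest treated mouse, without overlap. It fell by 0.97 on the log2 scale (SE 0.203, FDR = 0.00202), to 50.9% of the control mean. Pck2, the mitochondrial form, was scarce and fell from 2.29 ± 0.488 to 1.48 ± 0.489 CPM with overlap (FDR = 0.0474), a call lost without any mouse other than replicate 3 of either group, at log2 fold changes of -0.69 to -0.51. It made under 0.11% of the summed FPKM of both genes in all 10 mice.

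Fbp1, fructose-1,6-bisphosphatase, had 645 ± 123 and 460.1 ± 128 CPM and was not called (log2 fold change -0.49, 95% interval -0.93 to -0.04, FDR = 0.0676). Without saline replicate 5 or CD95-Ab replicate 3 it was called, at -0.66 to -0.59. Pcx, pyruvate carboxylase, had 339 ± 41.8 and 350.1 ± 91.8 CPM (log2 fold change 0.05, 95% interval -0.36 to 0.46, FDR = 0.854), a value whose sign turned under other scalings. The genes of this step therefore spanned log2 fold changes from -4.16 to 0.05.

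Single mice ranked alike across the genes. Such ranks over all tested genes are not given here, so this need not be particular to the members. Replicate 3 of CD95-Ab was the highest treated mouse in 8 of the 11 genes that were higher, in 9 of the 15 that were lower and in 7 of the 13 not called. It was the lowest in none of the 39. Replicates 1 and 5 were the lowest treated mice in 4 and 5 of the 11 higher genes and in 6 and 5 of the 15 lower ones. Without replicate 3 the counts were 11 higher and 16 lower, and 3 rather than 2 genes lay at or below -2. Without replicate 1 they were 12 higher and 11 lower. The median SD of log2 CPM within a group was 0.294 for saline and 0.327 for CD95-Ab over the members, compared with 0.274 and 0.306 over all tested genes.

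Markers of other cells moved with the treatment, and fewer cells of a type cannot be told apart from less RNA per cell in whole tissue. Summed CPM of 12 hepatocyte markers were 117630 to 146780 in controls and 65788 to 107510 after CD95-Ab, with 5 of the 12 lower and 1 higher, and replicate 3 of CD95-Ab was the highest treated mouse here too. The labelled tissue was matched by these markers in all 10 mice, with albumin at 7.72% to 9.65% of counts in controls and at 2.88% to 5.44% after CD95-Ab. The 14 neutrophil markers summed to 4.96 to 12.3 CPM in controls and 135 to 509.9 CPM after CD95-Ab, and all 9 that could be tested were higher. Erythrocyte markers rose in all 8 genes tested, from 135 to 326 CPM to between 1066 and 34067 CPM, with replicate 3 highest and replicate 1 lowest. The summed neutrophil, sinusoidal endothelium, cholangiocyte and platelet markers had the same highest and lowest treated mouse. So did members in both directions, such as Hk1 and Slc16a3, which rose, and Dlat and Pdk1, which fell.

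Macrophage and Kupffer cell markers (7 of 12 higher) summed to 159 to 496 and 540.2 to 934 CPM, lymphocyte markers (10 of 12) to 2.65 to 10.5 and 15.9 to 21.9, sinusoidal endothelium (8 of 9) to 68.5 to 153 and 229 to 438, stellate cells (5 of 9) to 165 to 251 and 347 to 652, cholangiocytes (4 of 6 higher, 1 lower) to 31.2 to 44.6 and 51.2 to 189, and platelets (4 of 5) to 2.45 to 9.20 and 10.2 to 32.3. No defining marker of these lists was at 0 in all mice of a group. Skeletal muscle markers were near 0 in both groups, at 0.978 to 1.43 and 1.09 to 1.94 CPM, with Myh4 and Mb at 0 in every mouse. RNAs without a poly(A) tail are a sign of how libraries were made or of RNA state. The 9 in the list summed to 0.329 to 0.924 CPM in controls and 357 to 1309 CPM after CD95-Ab. Nearly all of the sum after CD95-Ab was Rn7sk, with a mean of 742 CPM, compared with 0.392 CPM in controls. No other RNA of the list had a mean above 2.92 CPM. Of the 9, only 3 could be tested, and these were higher. Several of the genes that rose, such as Hk3, Pkm, Hk1 and Slc16a3, are also expressed by leukocytes or red cells, and the part of these cells and of RNA state in the results was not tested.

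**Figure D4:**
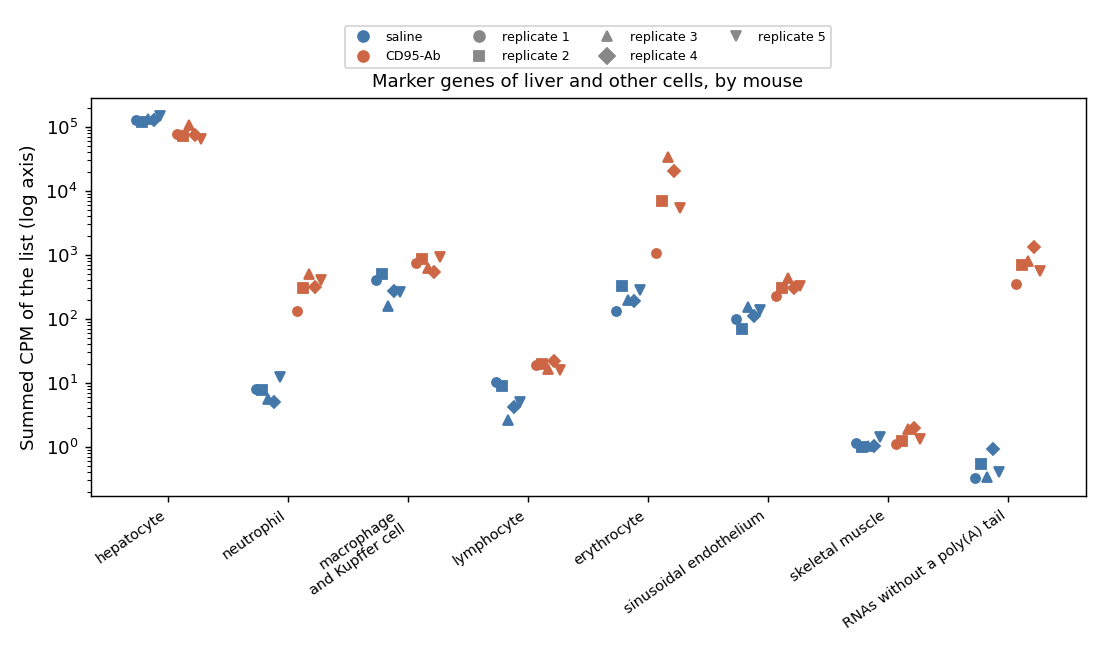
Summed CPM of marker lists for liver and other cells, and of RNAs without a poly(A) tail, by mouse on a log axis; the shape of a point gives the replicate number. Hepatocyte markers are lower and neutrophil, erythrocyte and endothelial markers higher in all 5 CD95-Ab mice than in all controls, while skeletal muscle markers stay below 2 CPM.

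Further genes of the same pathways were counted in the same way. Of 13 tested further genes of glycolysis and gluconeogenesis, 3 were higher and 7 lower, with a median log2 fold change of -0.64. The largest changes were in Slc2a3, the neuronal and leukocyte transporter GLUT3 (log2 fold change 3.23, FDR = 3.91e-05), in Bpgm, which makes the 2,3-bisphosphoglycerate of red cells (3.03, FDR = 8.57e-04, from 5.77 to 9.77 CPM in controls to 10.2 to 144 CPM), and in the fructose transporter Slc2a5 (-2.77, FDR = 1.50e-04).

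Among 21 tested further genes of lactate and pyruvate, 5 were higher and 7 lower (median -0.28). Emb, embigin, a chaperone of lactate carriers, rose by 4.05 on the log2 scale (FDR = 7.65e-06) and the carrier Slc16a6 by 2.96 (FDR = 1.24e-05). Pdp1, a phosphatase that switches PDHC back on, rose by 2.45 (FDR = 2.34e-04), from 0.75 ± 0.36 to 4.11 ± 1.41 CPM. Pdp2, another such phosphatase, named after its value was seen, was more abundant and was called lower. It had 17.3 ± 5.8 and 10.4 ± 3.5 CPM with overlap (log2 fold change -0.72, FDR = 0.0466). The remaining subunits of PDHC, named here after their values were seen, were not called: Dld, its E3 subunit, with 90.1 ± 13.3 and 90.4 ± 10.8 CPM (FDR = 0.979), and Pdhx with 22.4 ± 4.61 and 22.4 ± 1.75 CPM (FDR = 0.985).

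Glycogen genes had 2 higher and 9 lower of 18 (median -0.47). The largest changes were in the glycogen-targeting subunits of protein phosphatase 1, of which Ppp1r3c fell by 3.83 (FDR = 3.25e-06) and Ppp1r3g by 3.66 (FDR = 0.00432), while Ppp1r3d rose by 2.65 (FDR = 0.00152) from a mean of 0.1254 CPM. Genes of fructose and glycerol use had 0 higher and 6 lower of 10 (median -0.78), led by Sord, sorbitol dehydrogenase (-1.24), the glycerol channel Aqp9 (-1.13) and glycerol-3-phosphate dehydrogenase Gpd1 (-0.90).

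Of 30 regulators of glucose metabolism, 9 were higher and 10 lower (median -0.17). Myc, a transcription factor that activates glycolytic genes, rose by 3.78 on the log2 scale (FDR = 4.08e-06). Sik1, a kinase that restrains gluconeogenic genes, rose by 2.22 (FDR = 9.45e-04), and Klf15, a factor that promotes gluconeogenesis, fell by 2.18 (FDR = 2.03e-06). Hif1a, a hypoxia-inducible factor subunit also named after its value was seen, went from 22.8 to 32.8 CPM in controls to 65.6 to 118 CPM after CD95-Ab (log2 fold change 1.51, FDR = 3.06e-05). Epas1, another such subunit, was more abundant and was not called, with 136 ± 16.9 and 174 ± 59.3 CPM (log2 fold change 0.35, FDR = 0.190). The part of hypoxia in the results was not tested.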

How the data were processed

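Liver RNA of 10 mice, 5 saline and 5 CD95-Ab, was sequenced as paired reads from TruSeq libraries. The authors assigned reads to genes with RSEM 1.2.19 and deposited expected counts and FPKM values per gene and mouse. The expected counts were whole numbers in the files, so rounding changed none. The FPKM values deposited are scaled for transcript length and served only for shares and levels between genes. The study's methods name a human GENCODE release as the annotation, whereas the identifiers in all deposited tables are mouse Ensembl genes; the mouse release and genome build are not given in the sources used here. Symbols and positions come from GENCODE mouse release 21 (GRCm38), which matched 37606 of 38922 identifiers.

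Genes were kept with filterByExpr (minimum count 10), scaled with TMM factors and tested with edgeR 4.0.16 in R 4.3.3, group as the only term, with Benjamini-Hochberg adjustment over 13719 genes. The SE was derived from the F statistic. Alternatives were DESeq2 1.42.0, limma 3.58.1 on log2(FPKM + 0.1) and log2(FPKM + 1), other factors, filters and thresholds, a replicate block and each mouse left out. On simulated counts (13230 genes fitted), 100 genes were given a log2 change of 1 and 100 a change of 3, evenly in both directions. Of these, 63% and 97% were recovered, and 5.33% of calls were unchanged genes. In the livers 47.3% of tested genes were called, far more than were changed in the simulation, so these rates need not hold there. No mice agreed within sampling noise (chi-square per degree of freedom 42.4 to 554). No batch is given, so no within-batch value could be computed. The labels call the mice biological replicates.

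The 39 members and all lists were chosen with earlier results of these data known. All 39 are named. The value of each mouse is given for called members at or past 2 or -2 in log2 fold change, for lactate and pyruvate dehydrogenase genes and their kinases, and for Pck1, Gapdh and Slc16a1. From each further list, the 3 called genes with the largest changes are named. Promoters were read for the 3 largest rises and the largest fall. They were printed up to the first base of the window in an exon of the gene, where at least 1 in 2 bases remained. Protein sequences were not used here.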

Additional observations from a re-analysis of the deposited data

Results flagged for a closer look

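In 3 of 78 groups of 5 values (39 genes in 2 groups), the highest or lowest mouse lay apart from the rest by Dixon's test at the 95% level, where chance alone gives about 1 in 20 groups, or 3.9. Ldhb in saline replicate 2 was at 0.415 CPM, compared with 1.11 to 1.52 CPM in the other 4 controls. Pck1 in the same mouse was at 1822 CPM, compared with 2969 to 3300.2 CPM. Dlat in CD95-Ab replicate 1 was at 17.2 CPM, compared with 25.8 to 28.7 CPM in the other treated mice. Without any single mouse, Dlat and Pck1 remained called lower and Ldhb remained not called.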

How the results depend on the processing

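For 24 of the 39 genes the direction and the side of the FDR threshold were kept in all alternatives that gave a value. At an FDR of 0.01, the 15 genes lower became 9 and the 11 genes higher became 9, with Ldha and Pdk4 lost among the higher. With a mouse left out, 10 to 16 were lower and 10 to 12 higher. The genes lower became 18 with DESeq2, with upper quartile factors and with limma on log2(FPKM + 0.1), and 11 with at least 10 counts required in every mouse. The 8 genes with a log2 fold change of 2 or more became 4 with limma on log2(FPKM + 1), which shrinks low values, and stayed at 8 with any mouse left out. The 2 genes at -2 or less became 1 with at least 10 counts required in every mouse and 1 with the replicate block, and 1 to 3 with a mouse left out (1 without saline replicates 1 or 3 or CD95-Ab replicates 2 or 5, since Slc2a2 lies at -2.01; 3 without CD95-Ab replicate 3). Slc16a3 has 7 counts in a control and no value under that filter.

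Calls of Eno1, Gpi1, Mpc1, Pck2 and Pdhb were lost in 9 to 11 alternatives each, and that of Ldha in 3. Among genes not called, Aldoc, Tpi1, Fbp1, Slc16a1 and Aldoa were called in 7, 8, 6, 4 and 1 alternatives. Of the isozyme shares, 7 of 18 moved when CPM replaced FPKM and 0 with a mouse left out.

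The sign of 2 genes not called turned. Pgk1 had -0.0602 without normalization factors, -0.0523 with upper quartile factors, -0.0103 without a filter, -0.0688 and -0.0683 with limma (FPKM + 0.1 and + 1), and -0.105 to 0.0748 with a mouse left out (below 0 without saline replicate 2 or 5 or CD95-Ab replicate 3, the nearest to 0 being -0.00985). Pcx had -0.0198 without factors, -0.0275 with upper quartile factors, -0.0730 and -0.0716 with limma, and -0.0597 to 0.149 with a mouse left out (below 0 without saline replicate 5 or CD95-Ab replicate 1 or 3). The cause was not tested.

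Mice with the same replicate number correlated in their deviations from the group means by 0.26, 0.088, 0.13, -0.017 and -0.27. Mice with different numbers correlated by -0.35 to 0.51. These values show no pairing by number but cannot exclude it, and the labels name none. With the replicate block, 11 genes were higher and 10 lower, the calls lost being Eno1, Gpi1, Mpc1, Pck2 and Pdhb. Depth limits Hk1, Hk2, Ldhb, Pfkfb4 and Slc16a3, whose means in controls were 0.503 to 1.47 CPM.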
